A study of Mus musculus with 12 samples.

Results

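The inflammasome and pyroptosis genes described here are 9 named transcripts, namely Nlrp3, Nlrp12, Nlrc4, Nlrp1b, Aim2, Pycard, Casp1, Casp4 and Gsdmd. They were taken by exact match of the gene symbol from 20774 genes listed in RNA-seq tables of mouse lung. All 9 were found, and all 9 passed the filter on low counts that left 15921 genes for testing. The mice were wild type C57BL/6J with an age label of 8 weeks. PQ 1w and PQ 4w lungs came from mice that received paraquat (PQ), a herbicide that injures the lung, as 1 intratracheal dose in saline, and control 1w and control 4w lungs came from mice that received saline. Each of these 4 groups had 3 libraries, and 1w and 4w were read as weeks. Nothing in the labels ties the 3 libraries of a group to separate mice, so the p-values below reflect variation between libraries, which may be technical.

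An inflammasome is a cytosolic protein assembly that turns a danger signal into inflammation. A sensor such as Nlrp3 or Aim2 recruits the adaptor encoded by Pycard, and the adaptor gathers the protease encoded by Casp1. Casp1 then cleaves the precursors of the cytokines Il1b and Il18, and it cleaves the product of Gsdmd, whose freed fragment opens pores in the cell membrane and ends in lytic death called pyroptosis. Casp4, called Casp11 in much of the mouse literature, binds cytosolic lipopolysaccharide and cleaves the Gsdmd product without a sensor. Lung macrophages, dendritic cells, neutrophils and epithelium carry parts of this machinery. Assembly and cleavage act on protein, and the values below are RNA levels only.

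Levels are given as CPM, the expected counts scaled to a common library size with TMM factors, and effects as log2 ratios of PQ over control ± the standard error (SE). A gene rose or fell where the edgeR quasi-likelihood test gave a Benjamini-Hochberg adjusted p under 0.05 over all genes tested. Library totals were 17220978 to 18559809 expected counts. The PQ 1w libraries lay apart from the other 9 on the first principal component, at 68.9 to 73.8 against -40.6 to -6.19 in the others. PQ 4w replicate 3 stood apart from its group, with a chi-square per degree of freedom of 32.2 and 34.4 against the other PQ 4w libraries, where other pairs within a group gave 7.41 to 16.2. Where leaving it out changed a result given below, the value without it stands beside the result.

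The 9 transcripts did not move as a block after paraquat. At 1w, Nlrp1b and Pycard rose and Nlrp12 and Casp4 fell in PQ lungs, while 5 members did not pass the test. That is 4 of 9 members in a comparison where 48.8% of all tested genes passed (25.9% higher and 22.9% lower), so the count is close to the background. The groups were apart for these same 4 members, as they were for 58.7% of all genes. At 4w, Casp1 rose and Nlrp12 fell, against a background of 12.1% (5.75% higher and 6.39% lower, or 1146 genes higher and 607 lower by limma on log2 (FPKM + 0.1)). The 4w groups were apart for Casp1, Casp4 and Nlrp12, where 31.2% of all genes were apart. The effect of paraquat differed between the times for Casp1 and Casp4, both higher at 4w than at 1w, in a test that 32.0% of all genes passed (14.1% higher and 17.9% lower). The median log2 effect of the 9 members was -0.09 at 1w and 0.31 at 4w, beside medians over all tested genes of 0.00 at both times. The median absolute effect was 0.32 at 1w, beside 0.32 over all genes, and 0.37 at 4w, beside 0.16. The group as a whole was not tested.

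**Figure D1:**
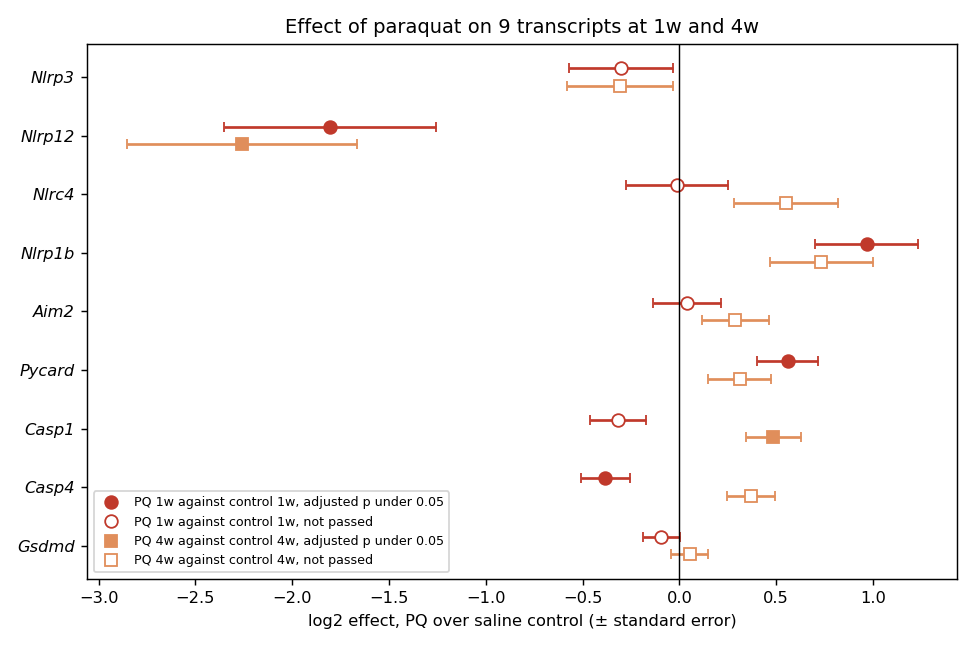
Log2 effect of paraquat over saline control (x axis, ± SE) for each of the 9 transcripts (rows) at 1w (circles) and 4w (squares), with filled symbols where adjusted p was under 0.05. Casp1 and Casp4 lie left of 0 at 1w (-0.32 and -0.38) and right of 0 at 4w (0.49 and 0.37), and Nlrp12 lies left of 0 at both times.

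Among the 9 members, only the inflammatory caspases Casp1 and Casp4 passed the test of the difference between the times. That is 2 members in a test that 32.0% of all genes passed, so the count is not above the background. Casp1 (chr9:5298517-5307281, GRCm38, plus strand) and Casp4 (chr9:5308849-5336791, plus strand) are neighbours, with 1568 bp between the end of Casp1 and the start of Casp4. At 1w, Casp1 had 7.70, 7.14 and 8.18 CPM in PQ lungs, against 10.6, 8.02 and 10.1 CPM in control lungs. PQ 1w replicate 3 lay above control 1w replicate 2, so the groups overlapped, and the effect of -0.32 ± 0.14 did not pass (edgeR adjusted p = 0.0836). Without control 1w replicate 2 the effect was -0.43 with adjusted p = 0.0318. That was the 1 fit that passed of 6 with a library left out, where effects were -0.43 to -0.23 (edgeR adjusted p up to 0.274). Casp1 at 1w passed in 0 of 7 other fits. At 4w, Casp1 had 10.6, 10.01 and 13.1 CPM in PQ lungs, against 8.62, 8.14 and 7.31 CPM in control lungs. Every PQ 4w library was above every control 4w library, as for 14.4% of all genes, and the effect was 0.49 ± 0.14 (edgeR adjusted p = 0.0440).

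Casp4 lay on the same side of its controls as Casp1 at each time. It had 9.24, 8.94 and 9.65 CPM in PQ 1w lungs, against 13.9, 10.3 and 12.1 CPM in control 1w lungs, and the groups did not overlap, as for 28.0% of all genes in that direction. Casp4 fell at 1w by 0.38 ± 0.13 on the log2 scale (edgeR adjusted p = 0.0235). In PQ 4w lungs it had 14.5, 14.5 and 14.3 CPM, against 10.9, 12.6 and 9.87 CPM in control 4w lungs. These groups did not overlap either, with an effect of 0.37 ± 0.12 that did not pass in the edgeR fit (adjusted p = 0.0726) and passed with DESeq2 (adjusted p = 0.0497) and with limma on log2 (FPKM + 0.1) (adjusted p = 0.0353). The 4w effect of Casp4 passed in only 3 of 7 other fits. It passed in 0 of 6 edgeR fits with a library left out (adjusted p = 0.0538 to 0.19).

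Tested directly, the paraquat effect at 4w minus that at 1w was 0.80 ± 0.20 for Casp1 (edgeR adjusted p = 0.00990) and 0.75 ± 0.18 for Casp4 (adjusted p = 0.00698). These differences correspond to ratios of 1.74 and 1.68 between the effects. Both passed in each of 6 other fits and in each of 12 fits with 1 library left out, where Casp1 ranged over 0.67 to 0.92 and Casp4 over 0.64 to 0.86. The calls at single times were less stable. Casp4 at 1w did not pass without control 1w replicate 1 (-0.27, adjusted p = 0.117), control 1w replicate 3 (adjusted p = 0.0619), PQ 1w replicate 1 (adjusted p = 0.0562) or PQ 1w replicate 2 (adjusted p = 0.0696). Casp1 at 4w did not pass without control 4w replicate 1, 2 or 3 (adjusted p = 0.0890, 0.0984 and 0.126) or without PQ 4w replicate 1 or 3 (adjusted p = 0.0785 and 0.112). It also did not pass with only the 4w groups fitted (adjusted p = 0.0924) or with no filter on low counts (adjusted p = 0.0575).

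**Figure D2:**
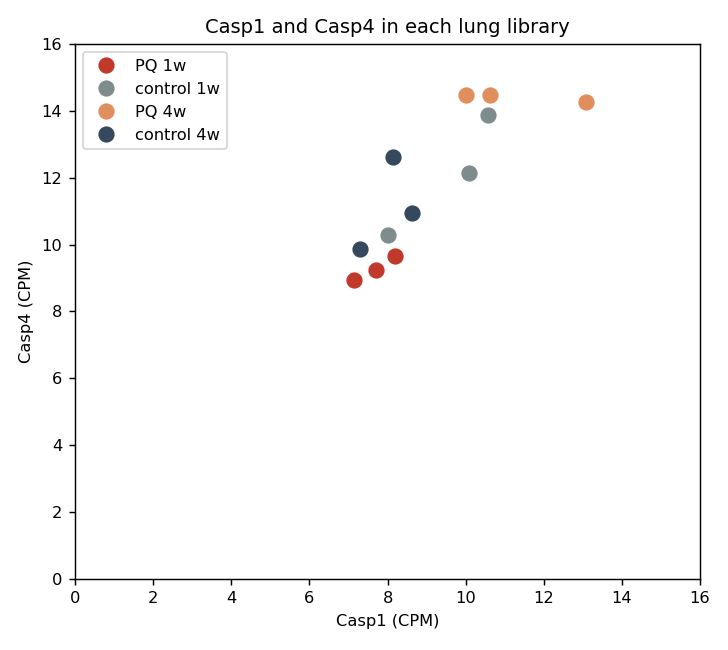
Casp1 (x axis, CPM) against Casp4 (y axis, CPM) in each of the 12 lung libraries, coloured by group. The 3 PQ 1w libraries sit lowest on Casp4 at 8.94 to 9.65 CPM, and the 3 PQ 4w libraries sit highest at 14.3 to 14.5 CPM.

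The start regions of this neighbouring pair are shown because both genes passed the test of the difference between the times. RefSeq windows of 250 bases before the annotated start were at hand for 8 of the 9 members, and each sequence runs to the base before the start. Capitals mark matches on either strand to GGG, any 5 bases and then CC, a loose form of the site bound by NF-kB, a transcription factor that drives many inflammatory genes.
Casp1, chr9:5298267-5298516, plus strand: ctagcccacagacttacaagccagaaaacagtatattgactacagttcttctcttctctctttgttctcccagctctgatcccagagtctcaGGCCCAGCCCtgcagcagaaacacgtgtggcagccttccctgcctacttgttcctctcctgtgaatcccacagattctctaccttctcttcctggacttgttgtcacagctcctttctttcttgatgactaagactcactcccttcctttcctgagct
Casp4, chr9:5308599-5308848, plus strand: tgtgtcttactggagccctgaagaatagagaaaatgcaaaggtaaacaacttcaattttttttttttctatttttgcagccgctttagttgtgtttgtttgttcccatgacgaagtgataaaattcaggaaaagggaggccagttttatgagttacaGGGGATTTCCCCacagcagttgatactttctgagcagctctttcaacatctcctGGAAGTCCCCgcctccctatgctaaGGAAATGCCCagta
The Casp1 window held 1 match on the minus strand, at -158 to -149 from the start. The Casp4 window held 5, of which 3 overlap each other around -93 to -82 and the others lie at -39 to -30 and -14 to -5. A match of this kind occurred in 45.8% of 32851 mouse windows of the same length, so its presence is a description of these letters. Neither window held the interferon-response letters TTTC, any 2 bases and TTTC (2.98% of windows) or TTCNNNGAA (7.02% of windows), which says only that they are not within these 250 bases.

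Nlrp12, a sensor-family gene expressed in neutrophils and other myeloid cells, was the member with the largest effect at both times. It had 1.38, 0.654 and 0.873 CPM in PQ 1w lungs, against 3.85, 1.54 and 4.79 CPM in control 1w lungs. In PQ 4w lungs it had 0.385, 0.506 and 0.878 CPM, against 2.26, 5.09 and 1.2 CPM in control 4w lungs. PQ libraries lay below control libraries at both times, and the controls varied more, by 3.12 times between the lowest and highest at 1w and by 4.25 times at 4w. The fall was 1.80 ± 0.55 on the log2 scale at 1w (edgeR adjusted p = 0.0163) and 2.26 ± 0.60 at 4w (adjusted p = 0.0296). These rest on few reads, with 53.0 expected counts over the PQ 1w libraries against 181 over control 1w, and 32.0 over PQ 4w against 150 over control 4w.

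The Nlrp12 difference between the times was -0.45 ± 0.82 (edgeR adjusted p = 0.707), so the effects were not told apart at this depth. The 1w call was lost without control 1w replicate 3 (-1.46, adjusted p = 0.0710), PQ 1w replicate 2 (-1.59, adjusted p = 0.0619) or PQ 1w replicate 3 (adjusted p = 0.0538). At 4w it was lost without control 4w replicate 1 (adjusted p = 0.0633), control 4w replicate 2 (-1.52, adjusted p = 0.128), PQ 4w replicate 1 (-2.03, adjusted p = 0.106) or PQ 4w replicate 2 (-2.15, adjusted p = 0.0729). It was also lost with only the 4w groups fitted (adjusted p = 0.0733) and with limma on log2 (FPKM + 0.1) (-1.48, adjusted p = 0.0596). On log2 (FPKM + 1), which shrinks changes of low genes, the effects were -0.51 at 1w and -0.49 at 4w (limma adjusted p = 0.0431 and 0.113). Of 14 listed neutrophil transcripts 12 were tested, and 5 fell and 0 rose at 1w (median -0.81), while 8 fell and 0 rose at 4w (median -1.37), or 6 and 1 without PQ 4w replicate 3.

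The receptors Csf3r and Cxcr2, which neutrophils need for growth and for migration, fell with Nlrp12 at both times. They were picked from the neutrophil list without a naming rule. Other list genes had higher means in PQ lungs at 1w, although 0 passed as higher. Mmp8 averaged 22.1 CPM in PQ 1w lungs against 18.4 CPM in control 1w lungs, and Ltf 102 against 23.2 CPM. On the log2 scale Csf3r fell by 1.502 at 1w and fell by 1.38 at 4w, and Cxcr2 fell by 1.10 at 1w and fell by 0.82 at 4w (edgeR adjusted p = 0.00606 and 0.0350 for Csf3r, 0.000890 and 0.0233 for Cxcr2). The summed neutrophil list did not separate the groups, at 279 to 347 CPM in PQ 1w lungs against 296 to 558 in control 1w lungs, and 239 to 664 in PQ 4w lungs against 293 to 744 in control 4w lungs. Ltf, a secreted iron-binding protein of neutrophil granules and of glands, made up much of that sum in some libraries. It had 448, 263 and 12.2 CPM in PQ 4w lungs, against 33.8, 41.0 and 41.3 CPM in control 4w lungs. Of the granule enzymes, Mpo was above 0 in 8 of 12 libraries and Elane in 3, while Mmp8 and Mmp9 were above 0 in all 12. The part of these transcripts in the Nlrp12 result was not tested, and in RNA of homogenized lung fewer cells of a type and less RNA per cell cannot be told apart.

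**Figure D3:**
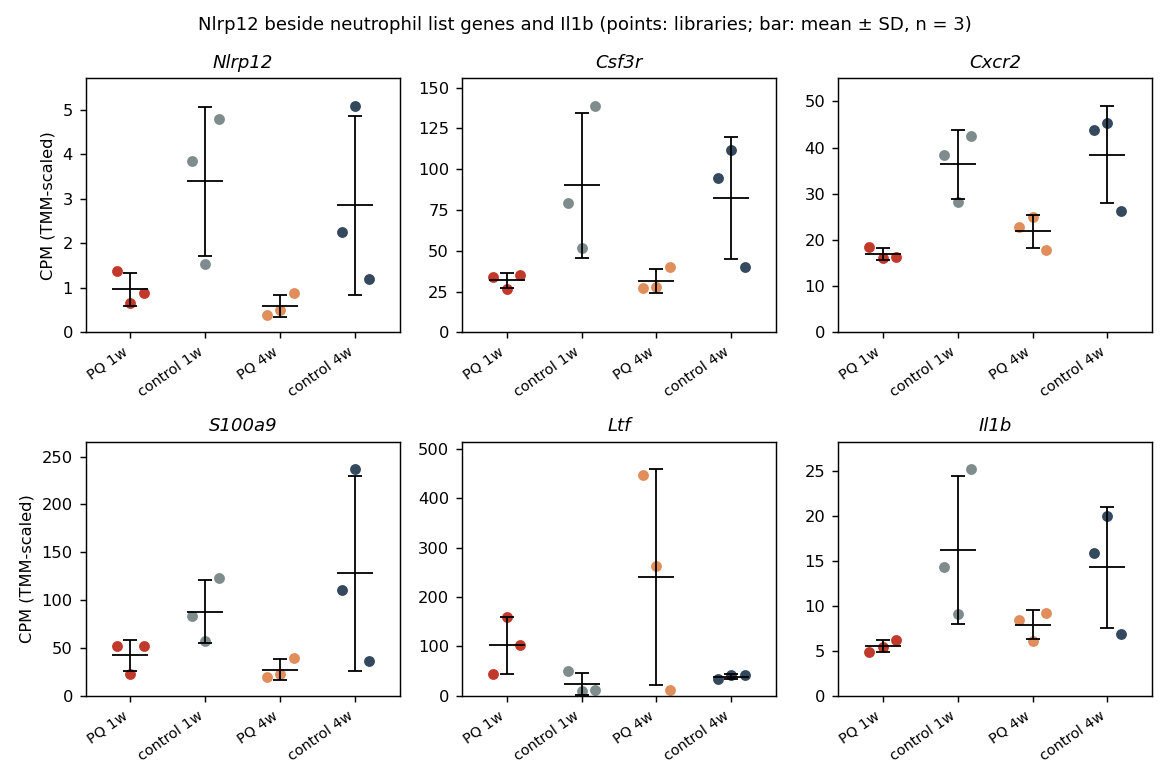
CPM (y axis, linear from 0) of Nlrp12, of the neutrophil list genes Csf3r, Cxcr2, S100a9 and Ltf and of Il1b in each library, with mean ± SD (n = 3) per group. Every PQ library of Nlrp12, Csf3r and Cxcr2 lies below the controls of its time, by as little as 40.2 against 40.3 CPM for Csf3r at 4w, while Ltf reaches 448 CPM in a PQ 4w library.

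Nlrp1b, a mouse inflammasome sensor, rose at 1w. It had 4.07, 4.63 and 4.96 CPM in PQ 1w lungs, against 2.32, 1.65 and 3.01 CPM in control 1w lungs, with no overlap, as for 30.7% of all genes in that direction. The effect was 0.97 ± 0.27, a ratio of 1.95 (edgeR adjusted p = 0.00948), and it passed in all 7 other fits and all 6 with a library left out. At 4w, it had 4.89, 2.53 and 4.83 CPM in PQ lungs, against 2.60, 2.15 and 2.63 CPM in control lungs. PQ 4w replicate 2 lay within the control range, and the effect of 0.73 ± 0.27 did not pass (edgeR adjusted p = 0.0945), but reached 0.99 with adjusted p = 0.0173 without that library. This was the 1 fit that passed of 6 with a library left out, with effects of 0.58 to 0.99 (edgeR adjusted p up to 0.277). Nlrp1b at 4w passed in 0 of 7 other fits. The effects at the times differed by -0.23 ± 0.38 (edgeR adjusted p = 0.667). On log2 (FPKM + 1) the 1w effect was 0.43 (limma adjusted p = 0.0127).

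Expected counts of Nlrp1b and of Aim2 were whole numbers in 0 of 12 libraries, which means that reads were divided between them and other genes, so their levels are uncertain. Nlrp1b (chr11:71152574-71242514, GRCm38, minus strand) also overlaps the annotated pseudogene Nlrp1c-ps, which averaged 0.403 CPM. Its paralog Nlrp1a, named after its values were seen, fell at 1w by 0.84 ± 0.15 on the log2 scale (edgeR adjusted p = 0.000742). Aim2, a sensor of cytosolic DNA that overlaps Cadm3, had 7.87, 8.07 and 9.05 CPM in PQ 1w lungs, against 8.94, 7.28 and 8.08 CPM in control 1w lungs. In PQ 4w lungs Aim2 had 11.2, 10.3 and 15.8 CPM, against 9.20, 12.2 and 9.13 CPM in control 4w lungs. Groups overlapped at both times, with effects of 0.04 ± 0.18 and 0.29 ± 0.17 that did not pass (edgeR adjusted p = 0.866 and 0.301).

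Nlrp3, the most studied sensor and one that responds to potassium efflux, crystals and mitochondrial damage, did not pass at either time. It had 4.68, 6.76 and 6.60 CPM in PQ 1w lungs, against 6.51, 5.46 and 10.2 CPM in control 1w lungs. In PQ 4w lungs it had 4.34, 3.71 and 5.87 CPM, against 5.79, 7.24 and 4.22 CPM in control 4w lungs. The groups overlapped both times, and the effects were -0.30 ± 0.27 and -0.31 ± 0.28 (edgeR adjusted p = 0.375 and 0.510). Nlrc4, which with the Naip proteins responds to bacterial flagellin and secretion systems, had 2.42, 2.72 and 2.78 CPM in PQ 1w lungs, against 2.26, 2.39 and 3.34 CPM in control 1w lungs. At 4w, Nlrc4 had 3.13, 2.03 and 4.39 CPM in PQ lungs, against 2.55, 2.09 and 1.88 CPM in control lungs. Its effects were -0.01 ± 0.27 and 0.55 ± 0.27 (edgeR adjusted p = 0.973 and 0.203), with overlap at both times.

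Pycard, the adaptor shared by most inflammasomes, rose at 1w. It had 18.5, 17.3 and 18.5 CPM in PQ 1w lungs, against 13.5, 11.2 and 12.1 CPM in control 1w lungs. Every PQ library exceeded every control library, and the effect was 0.56 ± 0.16, a ratio of 1.47 (edgeR adjusted p = 0.0108). The adjusted p stayed at 0.0171 to 0.0447 with any single library left out. At 4w, Pycard had 10.6, 9.73 and 15.5 CPM in PQ lungs, against 8.56, 10.3 and 9.99 CPM in control lungs. PQ 4w replicate 3 held the highest of these values and replicate 2 fell within the control range, with an effect of 0.31 ± 0.16 (edgeR adjusted p = 0.233). Without PQ 4w replicate 3 that effect was 0.075 (adjusted p = 0.736). The difference between the times was -0.25 ± 0.22 (edgeR adjusted p = 0.427), and -0.49 with adjusted p = 0.0369 without PQ 4w replicate 3.

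Transcripts of monocyte-derived and tissue macrophages rose at 1w, as Pycard and Nlrp1b did, and also at 4w, where neither of these members passed. Of 14 such markers 13 rose and 0 fell at 1w (median 1.97), and 12 rose and 0 fell at 4w (median 1.33). Their sum was 4092 to 4545 CPM in PQ 1w lungs, against 1054 to 1134 CPM in control 1w lungs, and 1838 to 2427 CPM in PQ 4w lungs, against 989 to 1053 CPM in control 4w lungs. Spp1 (949 to 1965 CPM) and Apoe (1309 to 1684 CPM) were the largest parts of the PQ 1w sum. All 14 markers were above 0 in every library. Their part in the Pycard and Nlrp1b results was not tested.

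Gsdmd, the pore-forming substrate, was the most abundant member. It had 44.1, 35.1 and 45.5 CPM in PQ 1w lungs, against 43.2, 43.6 and 46.2 CPM in control 1w lungs. At 4w it had 47.6, 48.6 and 55.0 CPM in PQ lungs, against 49.3, 50.7 and 45.7 CPM in control lungs. The groups overlapped at both times, and effects of -0.09 ± 0.10 and 0.05 ± 0.09 did not pass (edgeR adjusted p = 0.447 and 0.757). These are the smallest SEs of the 9 members.

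**Figure D4:**
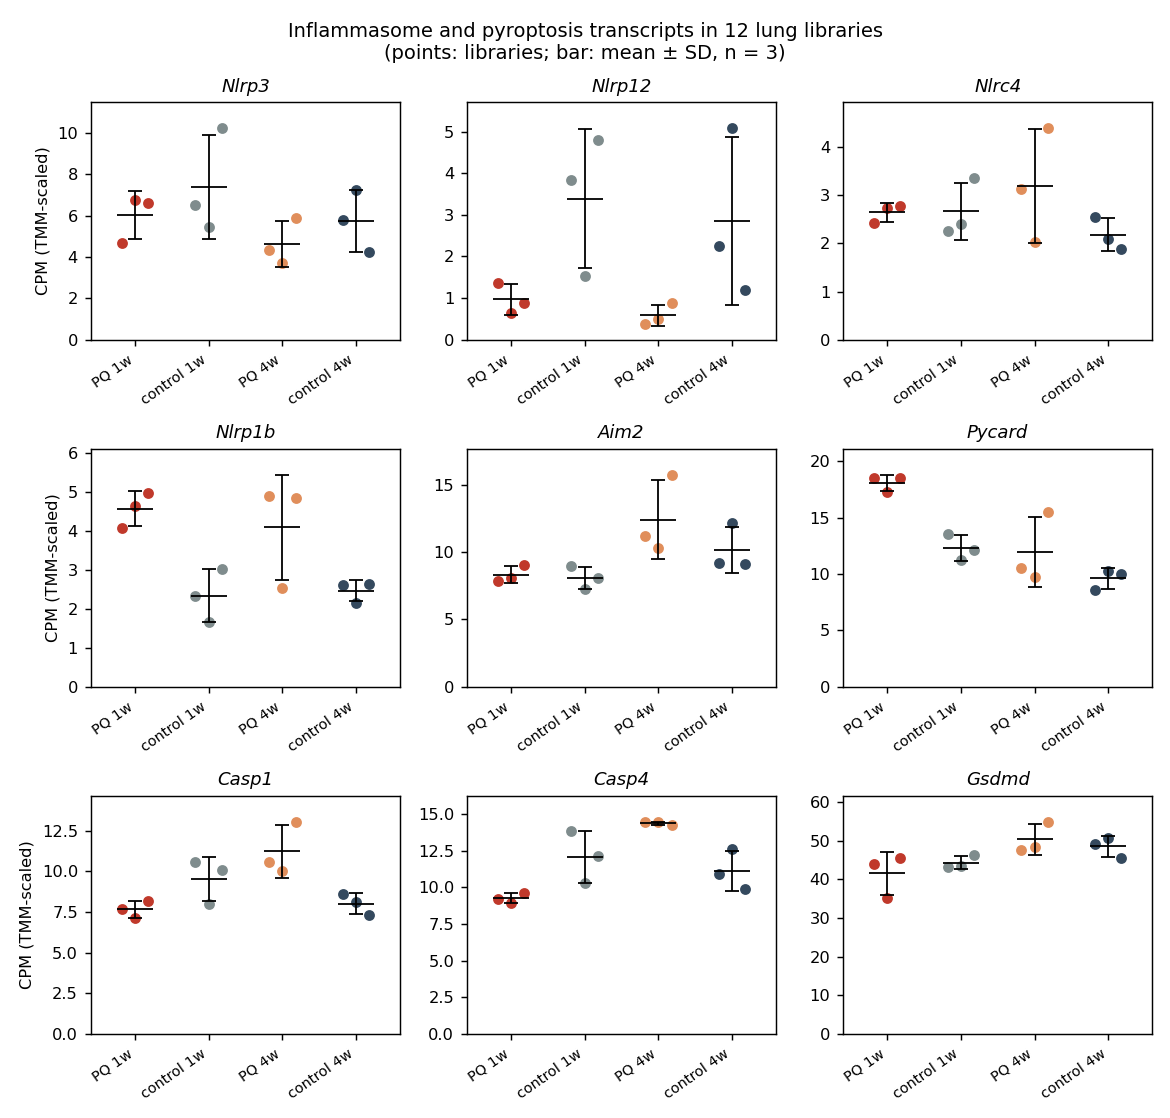
CPM (y axis, linear from 0) of each of the 9 transcripts in every library (points), with mean ± SD (n = 3) for PQ 1w, control 1w, PQ 4w and control 4w. Pycard and Nlrp1b are above control in all PQ 1w libraries, Nlrp12 is below control at both times, and Gsdmd stays between 35.1 and 55.0 CPM.

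Per transcript length, in the deposited FPKM, Gsdmd was highest with a mean of 26.1 over the 12 libraries, and its lowest library (19.6 FPKM) lay above the highest of any other member (10.7 FPKM, Casp4). Casp4 averaged 8.21 FPKM, Pycard 6.07 and Casp1 6.00. The libraries of Pycard spanned 3.89 to 8.68 FPKM and those of Casp1 4.65 to 8.94 FPKM, so their order is not resolved. Aim2 followed at 3.85 FPKM and Nlrp3 at 1.46 FPKM. Nlrp1b, Nlrc4 and Nlrp12 were lowest at 0.804, 0.690 and 0.442 FPKM, and their libraries overlapped (0.380 to 1.23, 0.480 to 1.18 and 0.0900 to 1.17 FPKM). Adaptor, caspases and gasdermin thus had higher RNA levels per length than the sensors Nlrp3, Nlrp1b, Nlrc4 and Nlrp12.

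Set against each other directly, PQ 4w lungs had more Casp1, Casp4, Aim2 and Gsdmd and less Pycard than PQ 1w lungs, or 5 of 9 members where 54.5% of all genes passed (26.7% higher and 27.8% lower). The groups were apart for 5 members, 4 of them higher, where 61.2% of all genes were apart (29.2% higher and 32.0% lower). This comparison shares its libraries with those above. Casp4 rose most, by 0.63 ± 0.12 (edgeR adjusted p = 0.00107), and Casp1 rose by 0.55 ± 0.14 (adjusted p = 0.00594). Pycard fell by 0.60 ± 0.16 on the log2 scale (edgeR adjusted p = 0.00640). Aim2 rose by 0.58 ± 0.17 (edgeR adjusted p = 0.0136), or 0.35 with adjusted p = 0.0698 without PQ 4w replicate 3. Gsdmd rose by 0.28 ± 0.09 (edgeR adjusted p = 0.0261), and did not pass without PQ 4w replicate 3 (0.19, adjusted p = 0.128), without PQ 1w replicate 2 (0.17, adjusted p = 0.105) or with only these groups fitted (adjusted p = 0.0662).

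Between control 4w and control 1w lungs, 0 of 9 members passed in the edgeR fit, against 10.1% of all genes (5.90% higher and 4.20% lower), and 0 passed with DESeq2 or limma. At an unadjusted p under 0.05 the edgeR count was 1, Pycard, with an effect of -0.35 ± 0.16 and control 4w libraries all below control 1w libraries. Aim2 control 4w libraries all lay above those of control 1w, with an effect of 0.33 ± 0.17 (edgeR adjusted p = 0.238). The groups did not overlap for 34.4% of all genes (18.9% higher and 15.5% lower).

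Among 13983 genes with a mean of at least 1 CPM, the profile most like Casp1 over the 12 libraries was that of Pip4k2a, a lipid kinase, with a root mean square difference of 0.0984 in centred log2 CPM, then Trp53inp1, a stress-induced target of p53, at 0.103. Casp4 was most like Trp53inp1 (0.102) and Fam107b (0.103), and Casp1 and Casp4 differed by 0.129 from each other. By that distance Casp4 had rank 13 among the genes nearest to Casp1, and Casp1 had rank 24 for Casp4. Trp53inp1 had effects of -0.37 at 1w and 0.37 at 4w, the same turn as Casp4. Nlrp12 was most like Ifitm6 (0.333) and S100a9 (0.372), and S100a9 is a calcium-binding protein abundant in neutrophils. Pycard was most like Suv39h2 (0.121) and Gins3 (0.124), and Nlrp1b like Rnf157 (0.195) and Parvg (0.228). For Nlrp3 the nearest were Il17ra (0.193) and Pram1 (0.213), for Nlrc4 Ptpn6 (0.155) and Was (0.158), for Aim2 Zfp472 (0.146) and Tspan32 (0.164), and for Gsdmd Dgkq (0.0734) and Zfp958 (0.0742). These distances share libraries and depth and are descriptions.

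Of 71 other pathway symbols 67 distinct genes were found and 57 tested. At 1w, 17 rose, 19 fell and 21 did not pass, beside 48.8% of all genes called. At 4w, 10 rose, 1 fell and 46 did not pass, beside 12.1% of all genes. The difference between the times passed for 21, of which 16 were higher at 4w and 5 lower, beside 32.0% of all genes (14.1% higher and 17.9% lower). That last count stayed at 20 to 24 with any library left out, while the 11 calls at 4w dropped to 3 without control 4w replicate 1 or 2, to 6 without control 4w replicate 3 or PQ 4w replicate 1, to 8 without PQ 4w replicate 3, and to 2 with only the 4w groups fitted. Falling at 1w and rising at 4w were Nlrc5, Ciita, Gbp2, Gbp3, Ptpn22 and Il1rl1, of which Gbp2 and Ptpn22 were named after their values were seen. All 6 passed the test of the difference, with the highest adjusted p at 0.00493 (edgeR). Opposite calls at 1w and 4w in the same fit all but fix that outcome, so it adds no support. The share of all genes that fell at 1w and rose at 4w was not counted. Without PQ 4w replicate 3 the 4w effect of Gbp2 was 0.31 in place of 0.64 and did not pass (edgeR adjusted p = 0.0618), and that of Ptpn22 was 0.56 in place of 0.81 (adjusted p = 0.0385). Their differences passed without that library (0.85 and 1.39, adjusted p = 0.00074 and 0.00064).

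**Figure D5:**
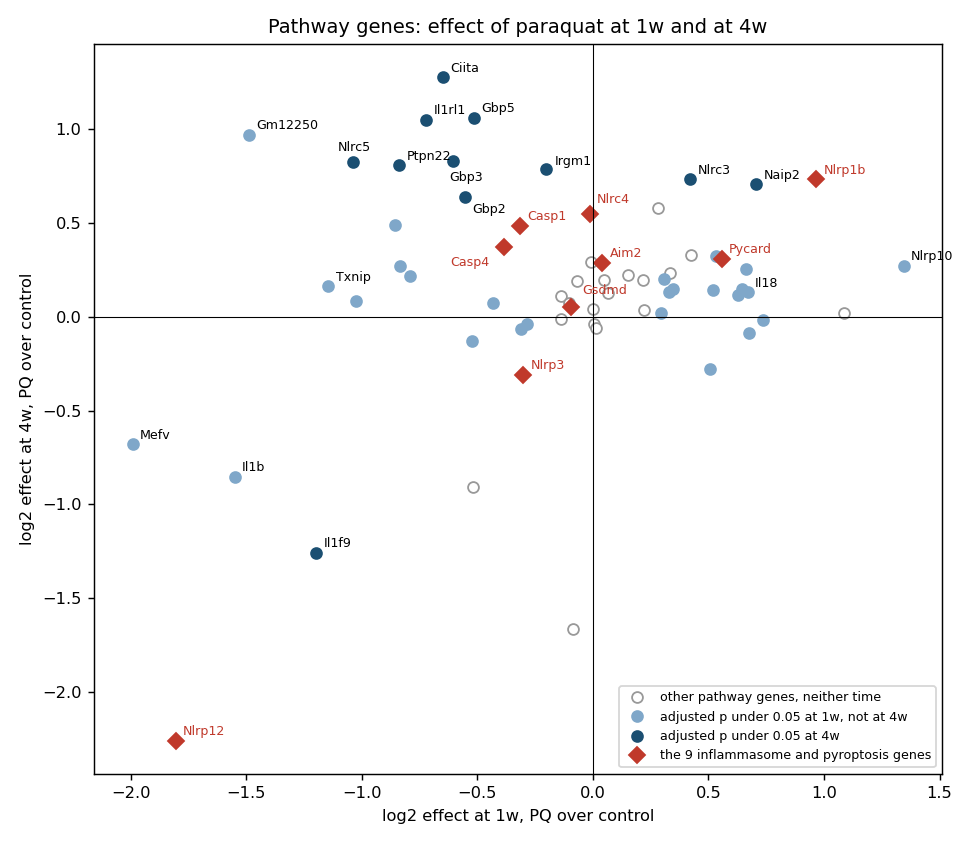
Log2 effect of paraquat at 1w (x axis) and at 4w (y axis) for other pathway genes (circles, shaded by whether adjusted p was under 0.05) and the 9 inflammasome and pyroptosis genes (diamonds). The upper left corner, lower at 1w and higher at 4w, holds Ciita (-0.65 and 1.28) and Nlrc5 (-1.04 and 0.83) together with Casp1 and Casp4.

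Of 18 genes listed as other sensors 14 were tested, with 4 higher and 6 lower at 1w and 4 higher and 0 lower at 4w. Mefv, which encodes pyrin, had 0.880, 1.09 and 2.18 CPM in PQ 1w lungs, against 6.11, 2.05 and 8.41 CPM in control 1w lungs. It fell by 1.99 ± 0.54 on the log2 scale (edgeR adjusted p = 0.00937) although PQ replicate 3 exceeded control replicate 2, and by 0.85 on log2 (FPKM + 1). Nlrp10 rose at 1w by 1.34 ± 0.32 (edgeR adjusted p = 0.00408), or by 0.32 on log2 (FPKM + 1). Among genes of this list that passed at 4w, Ciita and Nlrc5 had the largest effects. They are listed with the sensors, but are the master regulators of class II and class I antigen presentation genes. Ciita had 70.4, 39.8 and 71.2 CPM in PQ 4w lungs, against 19.8, 21.3 and 33.7 CPM in control 4w lungs, all PQ libraries being higher. Its effect was 1.28 ± 0.23 at 4w (edgeR adjusted p = 0.00595) and -0.65 ± 0.24 at 1w (adjusted p = 0.0384). Nlrc5 had effects of 0.83 ± 0.22 at 4w and -1.04 ± 0.23 at 1w (edgeR adjusted p = 0.0315 and 0.00252). Naip2, which senses bacterial secretion systems together with Nlrc4, rose at both times by 0.71 (edgeR adjusted p = 0.00962 and 0.0380), as did Nlrc3 by 0.42 and 0.73 (adjusted p = 0.0437 and 0.0161), and both were named after their values were seen. Naip2 at 4w did not pass without PQ 4w replicate 3 (0.55, adjusted p = 0.0895).

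Some of these single-time calls rest on single libraries. Ciita at 1w did not pass without control 1w replicate 1 or 3 (edgeR adjusted p = 0.0923 and 0.122) or PQ 1w replicate 1 or 2 (adjusted p = 0.124 and 0.0910), or with limma on log2 (FPKM + 0.1) or (FPKM + 1) (adjusted p = 0.0568 and 0.0687). Nlrc5 at 4w did not pass without control 4w replicate 1, 2 or 3 (adjusted p = 0.106, 0.0991 and 0.0631) or PQ 4w replicate 3 (0.45, adjusted p = 0.0517), or with only the 4w groups fitted (adjusted p = 0.110). The differences between the times, 1.93 ± 0.33 for Ciita and 1.86 ± 0.32 for Nlrc5, passed in every one of those fits (highest adjusted p = 0.00453 and 0.00445).

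All 20 regulators and activators were tested, with 3 higher and 8 lower at 1w and 5 higher and 0 lower at 4w. Txnip, a redox-sensitive protein that can bind Nlrp3, had 540, 446 and 523 CPM in PQ 1w lungs, against 1087, 1147 and 1098 CPM in control 1w lungs. These libraries were far apart, with a fall of 1.14 ± 0.10 on the log2 scale (edgeR adjusted p = 3.53e-06), and the 4w effect was 0.16 ± 0.10 (adjusted p = 0.325). Gm12250, the interferon-inducible GTPase also called Irgb10, fell at 1w by 1.49 ± 0.44 (edgeR adjusted p = 0.0142), and did not pass without control 1w replicate 1 (adjusted p = 0.0541) or PQ 1w replicate 1 or 2 (adjusted p = 0.0549 and 0.0578). At 4w its effect was 0.97 ± 0.42 (adjusted p = 0.153).

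The guanylate-binding proteins, interferon-induced GTPases that open vacuoles and bacteria to Casp4, included Gbp5 and Gbp3, which rose at 4w. Gbp5 had 27.0, 16.8 and 44.2 CPM in PQ 4w lungs, against 14.6, 10.9 and 16.7 CPM in control 4w lungs, and Gbp3 had 42.2, 34.8 and 74.5 CPM in PQ 4w lungs, against 28.7, 27.0 and 29.4 CPM in control 4w lungs. PQ 4w replicate 3 held the highest value of both. The effects were 1.06 ± 0.30 for Gbp5 and 0.83 ± 0.22 for Gbp3 (edgeR adjusted p = 0.0390 and 0.0289), and 0.64 and 0.44 without PQ 4w replicate 3 (adjusted p = 0.101 and 0.0297). Gbp5 did not pass without control 4w replicate 1, 2 or 3 (adjusted p = 0.110, 0.130 and 0.0592) or PQ 4w replicate 1 (adjusted p = 0.0735), and Gbp3 did not pass without control 4w replicate 1, 2 or 3 (adjusted p = 0.0938, 0.0892 and 0.0681). With only the 4w groups fitted neither passed (adjusted p = 0.112 and 0.108), and with limma on log2 (FPKM + 0.1) or (FPKM + 1) Gbp5 did not pass (adjusted p = 0.0516 and 0.0532). At 1w, Gbp3 fell by 0.60 ± 0.22 on the log2 scale (edgeR adjusted p = 0.0406), a call kept only without PQ 1w replicate 3 when single libraries were left out, and lost with limma on log2 (FPKM + 1) (adjusted p = 0.0518). The differences between the times were 1.58 ± 0.43 for Gbp5 and 1.44 ± 0.31 for Gbp3 and passed in all 12 fits with a library left out (highest adjusted p = 0.0448 and 0.0148).

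Of 6 apoptotic and other caspases, 3 rose and 0 fell at 1w, and 0 passed at 4w. Casp8, which starts death-receptor apoptosis, rose at 1w by 0.35 ± 0.08 (edgeR adjusted p = 0.00424). Of the gasdermins and rupture genes 9 were found and only 3 passed the filter on low counts. Ninj1, which ruptures the membrane of dying cells, rose at 1w by 0.73 ± 0.12 and Serpinb1a, an inhibitor of neutrophil proteases, rose by 0.67 ± 0.14 (edgeR adjusted p = 0.000412 and 0.00142). Both had effects near 0 at 4w, of -0.02 ± 0.12 and -0.09 ± 0.14.

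The substrates of Casp1 moved in opposite directions at 1w. Il1b had 4.90, 5.45 and 6.22 CPM in PQ 1w lungs, against 14.3, 9.10 and 25.2 CPM in control 1w lungs, and Il18 had 9.68, 13.4 and 13.1 CPM in PQ 1w lungs, against 7.75, 8.47 and 6.52 CPM in control 1w lungs. The groups did not overlap for either gene. Il1b fell by 1.55 ± 0.40 on the log2 scale (edgeR adjusted p = 0.00641) and Il18 rose by 0.67 ± 0.19 (adjusted p = 0.0110), and both passed with any single library left out. Their 4w effects were -0.85 ± 0.39 and 0.13 ± 0.19 (edgeR adjusted p = 0.174 and 0.708). Il1a did not pass at either time (edgeR adjusted p = 0.144 and 0.0661).

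Of 14 genes listed as substrate cytokines and their receptors, which include the nuclear protein gene Hmgb1, 5 rose and 5 fell at 1w, and 1 rose and 1 fell at 4w. Il1rn, the receptor antagonist, rose at 1w by 0.52 ± 0.17 (edgeR adjusted p = 0.0257), or 0.34 with adjusted p = 0.127 without PQ 1w replicate 2, and did not pass without control 1w replicate 1 or 2 or PQ 1w replicate 3 either (adjusted p = 0.0692, 0.0662 and 0.0728). Il1f9, the cytokine also called Il36g, fell by 1.197 ± 0.287 at 1w and fell by 1.26 ± 0.28 at 4w on the log2 scale (edgeR adjusted p = 0.00438 and 0.0144). At 4w it fell by 0.79 without control 4w replicate 2 (adjusted p = 0.0384) and did not pass without PQ 4w replicate 1 (adjusted p = 0.0527) or with only the 4w groups fitted (adjusted p = 0.0752). Il1rl1, the receptor of Il33, had 17.0, 12.6 and 9.72 CPM in PQ 4w lungs, against 7.06, 5.6 and 6.34 CPM in control 4w lungs. Its effect was 1.05 ± 0.24 at 4w and -0.72 ± 0.25 at 1w (edgeR adjusted p = 0.0154 and 0.0288), and the difference of 1.77 ± 0.34 passed with any library left out (highest adjusted p = 0.00737). The 4w call was lost without control 4w replicate 2 or PQ 4w replicate 1 (adjusted p = 0.0555 and 0.0613), and the 1w call without control 1w replicate 1 or 2 or PQ 1w replicate 1 (adjusted p = 0.0691, 0.0894 and 0.103). With limma on log2 (FPKM + 0.1) and (FPKM + 1) the 1w effect was -0.48 and -0.26 and did not pass (adjusted p = 0.171 and 0.214).

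Summed markers of T cells and of dendritic cells were lower in PQ lungs at 1w and higher at 4w. At 4w, 5 of 9 T cell and 5 of 10 dendritic cell transcripts did not pass. Over all genes 22.9% fell at 1w and 5.75% rose at 4w. All 9 tested T cell transcripts fell at 1w, 4 rose and 0 fell at 4w (3 and 0 without PQ 4w replicate 3), and all 9 passed the difference, higher at 4w. Their sum was 49.5 to 57.4 CPM in PQ 1w lungs, against 116 to 134 CPM in control 1w lungs, and 133, 95.1 and 187 CPM in PQ 4w lungs, against 83.8 to 93.2 CPM in control 4w lungs. Of 10 dendritic cell transcripts 8 fell and 1 rose at 1w, while 5 rose and 0 fell at 4w, with or without PQ 4w replicate 3. These summed to 54.9 to 64.1 CPM in PQ 1w lungs, against 116 to 125 CPM in control 1w lungs, and to 147 to 193 CPM in PQ 4w lungs, against 118 to 128 CPM in control 4w lungs. NK cell transcripts fell at 1w (9 of 9), and 0 of 9 passed at 4w with or without PQ 4w replicate 3. B cell transcripts also fell at 1w (9 of 9), and at 4w 0 of 9 passed, or 0 rose and 4 fell without PQ 4w replicate 3, whose B cell sum was 351 CPM against 167 and 136 CPM in the other PQ 4w lungs and 219 to 226 CPM in control 4w lungs. The part of these cell types in the Casp1 and Casp4 results was not tested.

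The other lists differed between groups as well. Monocyte transcripts summed to 7205 to 8536 CPM in PQ 1w lungs, against 2544 to 3337 CPM in control 1w lungs, with 2 of 10 higher and 3 lower. Alveolar macrophage transcripts summed to 1611 to 2191 CPM in PQ 1w lungs, against 716 to 772 CPM in control 1w lungs, with 5 of 13 higher and 2 lower. Without Chil3, which both lists hold, the alveolar macrophage sum was 454 to 618 CPM in PQ 1w lungs, against 421 to 476 CPM in control 1w lungs. At 4w, 2 monocyte transcripts rose and 0 fell (1 and 0 without PQ 4w replicate 3), and 1 alveolar macrophage transcript rose and 3 fell (1 and 4 without it). All 8 alveolar type 2 epithelium transcripts fell at 1w and 3 rose at 4w, or 1 without PQ 4w replicate 3. Of 6 airway epithelium transcripts 2 fell at 1w, and 1 fell and 0 rose at 4w (1 and 2 without that library). Endothelial transcripts fell at both times (6 and 7 of 7), and of 7 fibroblast transcripts 4 rose and 2 fell at 1w, with 1 in each direction at 4w.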

How the data were processed

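Lung RNA of 12 mouse libraries was sequenced on a BGISEQ 500, and samples with an RNA integrity number above 7 were used, per the labels' protocols. Per the submitters' processing notes, the tools were HISAT and RSEM 1.2.12 and the build mm10. Not given in the sources used here were the HISAT version, the annotation release and strandedness. Expected counts per gene, not scaled to depth, and FPKM values, adjusted for depth and gene length, were deposited by the authors, per the file headers. A combined FPKM table of 12 columns differed from the single tables by at most 0. Of the listed expected counts 69.7% were whole numbers, and all were rounded. Genes absent from a library's table were set to 0, and 27 symbols that had become dates were restored from gene IDs.

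Groups and replicate numbers came from the labels. Genes were tested with edgeR's quasi-likelihood method (glmQLFit and glmQLFTest) with a mean for each of 4 groups fitted to the 12 libraries, after filterByExpr (minimum count 10, minimum total count 15) and TMM scaling, with Benjamini-Hochberg adjustment over 15921 genes at 0.05. Contrasts were PQ against control at each time, their interaction (4w effect minus 1w effect), and the 4w minus 1w comparison within PQ and within control lungs. An SE is the absolute effect divided by the square root of F. The script was tested on simulated counts. Alternatives were RLE scaling, no filter, DESeq2, limma on log2 FPKM with a pseudocount of 0.1 or 1, a replicate block, only the groups compared, and each library left out. The same alternatives for the other pathway genes were chosen after seeing the data. Depth was 17220978 to 18559809 expected counts per library, and an SE covers the spread between libraries only. Marker lists were refitted without PQ 4w replicate 3, and the alveolar macrophage sum was taken without Chil3, both chosen after seeing the data.

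The 9 members, the pathway list of 71 symbols and the 12 marker lists of 116 symbols were chosen with earlier results of these data known. Chil3 stands in both the monocyte and the alveolar macrophage list. Pathway genes were named by rule: Il1b, Il18, Il1a, Il1rn and, per role and time, the 2 genes with the largest effects among those that passed with a mean of at least 1 CPM. A gene named by this rule is not reported here. Profiles were compared without Gm numbers, Rik clones and antigen receptor segments. Coordinates and promoter windows are RefSeq's for GRCm38.p6, and motifs were searched on both strands with overlaps counted. Tests used DESeq2 1.42.0, limma 3.58.1 and edgeR 4.0.16 under R 4.3.3. Tables and plots used matplotlib 3.10.9, numpy 2.4.6 and pandas 2.3.3 under Python 3.11.15.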

Additional observations from a re-analysis of the deposited data

Results flagged for a closer look

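Among the 9 members, 2 had a paraquat effect that differed between the times by the interaction term, a test that 32.0% of all genes passed, so the count is not above the background. The effect of Casp1 at 4w minus that at 1w was 0.80 on the log2 scale (edgeR adjusted p = 0.00990), and that of Casp4 was 0.75 (adjusted p = 0.00698). PQ libraries of both genes lay on opposite sides of their controls at the times, except that Casp1 overlapped at 1w.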

How the results depend on the processing

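For the 9 members, 287 of the results in other fits and 280 of those with a library left out kept their direction and their side of the threshold, and 8 and 22 changed sign, all in effects that did not pass. The differences between the times for Casp1 and Casp4, and the 1w rises of Nlrp1b and Pycard, passed in every fit run. The count of members past the threshold at 4w, 2, became 1 with no filter on low counts, 0 with the replicate block and 0 with only the groups compared, and 0 to 2 with a library left out. It was 3 with DESeq2 (2 higher and 1 lower) and 2 with each limma fit (2 higher and 0 lower), beside 1 higher and 1 lower in the main fit. At 1w that count, 4, was 2 to 5 with a library left out, and between PQ 4w and PQ 1w, 5, it was 3 to 5. The cause was not tested. Over all genes the count at 4w, 1932, was 746 with only the groups compared and 641 to 2104 with a library left out, and control 4w against control 1w, 1609, gave 123 to 1420 (DESeq2 1131 higher and 1239 lower, against 940 and 669). Signs turned for Nlrc4 at 1w (0.003 with the replicate block, 0.014 on log2 (FPKM + 0.1), 0.003 on log2 (FPKM + 1)) and for the difference of Nlrp3 (0.028 with RLE scaling, 0.026 with DESeq2, 0.031 and 0.034 on the FPKM scales) and of Nlrp12 (0.014 on log2 (FPKM + 1)). With a library left out, effects spanned 0 at 1w for Nlrp3 (-0.478 to 0.017), Nlrc4 (-0.110 to 0.194), Aim2 (-0.028 to 0.125) and Gsdmd (-0.162 to 0.016), and at 4w for Gsdmd (-0.016 to 0.096). They did so in the difference for Nlrp3 (-0.315 to 0.205), Nlrp12 (-0.865 to 0.276) and Nlrp1b (-0.466 to 0.024), between PQ groups for Nlrc4 (-0.053 to 0.505) and Nlrp1b (-0.313 to 0.089), and between controls for Nlrp12 (-0.987 to 0.101) and Nlrp1b (-0.130 to 0.301). Replicate numbers did not pair libraries: deviations of same-numbered PQ and control libraries correlated at -0.350, -0.214 and -0.0739 at 1w and -0.111, 0.152 and -0.179 at 4w. With the replicate block, adjusted p at 4w was 0.0501 for Casp1 and 0.0551 for Nlrp12.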
